A study of Homo sapiens with 9 samples.

Results

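The Notch pathway genes of SKOV3 cells were examined as 10 members chosen by name from the 58735 genes of the count table. They are the ligands JAG1, JAG2 and DLL1, the receptors NOTCH1, NOTCH2 and NOTCH3, the nuclear factors RBPJ and MAML1, and the target genes HES1 and HEY1. The choice was made with earlier results of these data known. All 10 were in the table, and 9 passed the filter on low counts and were tested. DLL1 did not pass.

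RNA-seq was performed on SKOV3, an established human ovarian cancer cell line, in 3 groups of 3 libraries each. WT CDK9 cells expressed the unchanged kinase CDK9 and were kept in basal conditions. The group labelled Ai also expressed WT CDK9 and received an ALK inhibitor for 24 h. The group labelled Y19F expressed Tyr19Phe CDK9, in which the tyrosine that the receptor tyrosine kinase ALK can phosphorylate is replaced by phenylalanine. All 3 groups were grown in the same medium with serum and antibiotics, and all expressed a CDK9 construct. The study describes its SKOV3 cells with WT and with Tyr19Phe CDK9 as separate stable lines, so the cell line and the mutation cannot be told apart in a comparison of them. The name and dose of the inhibitor, the number of clones behind a line and whether endogenous CDK9 had been depleted in the sequenced cells are not given in the sources used here. Nothing says that the 3 libraries of a group came from separate cultures, so p-values measure the spread between these libraries, which may be technical.

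Notch receptors are single-pass membrane proteins that are bound by ligands of the Jagged and Delta-like families on a neighbouring cell. Binding lets an ADAM protease and then gamma-secretase cut the receptor, and the freed intracellular domain enters the nucleus, where it joins the DNA-binding protein RBPJ and a Mastermind coactivator such as MAML1 to transcribe HES and HEY repressor genes. In ovarian carcinoma the pathway is studied for its part in growth and drug resistance.

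The libraries held between 18169050 and 29320184 counts. The Tyr19Phe libraries were deepest, with a median total 1.45 times that of WT. CDK9 was at 891 to 944 counts in WT, 861 to 922 with the ALK inhibitor and 1493 to 1578 in the deeper Tyr19Phe libraries. Its log2 fold change was -0.09 (edgeR quasi-likelihood test, adjusted p = 0.665) with the inhibitor and 0.18 (adjusted p = 0.106) in Tyr19Phe cells. In the direct contrast CDK9 was higher in Tyr19Phe than in inhibitor-treated cells (log2 0.27, adjusted p = 0.00961). As CPM (counts scaled to the library total) CDK9 was at 47.6 to 49.7 in WT, 43.8 to 47.3 with the inhibitor and 52.4 to 59.5 in Tyr19Phe cells. No group overlapped another. The counts do not separate the construct from the endogenous gene. ALK itself had 0 to 5 counts. Of 9 markers of SKOV3 and ovarian epithelium, ERBB2, PAX8, KRT7, KRT8, KRT18, KRT19 and EPCAM were present in every library. The marker gene WT1 was low, at 7 to 52 counts, and the ovarian tumour antigen MUC16 had 0 to 9 counts. Of 5 fibroblast markers, COL1A1 carried most of the summed CPM. That sum was 110 to 113 in WT, 124 to 162 with the inhibitor and 38.1 to 51.7 in Tyr19Phe cells. COL1A2 had 113 to 220 counts, PDGFRB at most 11, and DCN and LUM at most 4. The 5 leukocyte markers had at most 7 counts each, and the 4 endothelial markers summed to 0.975 to 2.62 CPM in WT, 1.29 to 1.95 with the inhibitor and 3.28 to 4.34 in Tyr19Phe cells. The part of these marker differences in the results was not tested. The inhibitor library 2 and the Tyr19Phe library 3 had the fewest detected genes of their groups, 19944 and 20635.

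The promoters of 3 members, HES1, JAG1 and JAG2, are shown. Any part of these sequences in the changes of the 3 genes was not tested. HES1 is the classical direct target of the RBPJ complex, and JAG1 and JAG2 are the ligands that moved in opposite directions. RefSeq promoters (GRCh38.p14) matched 8 of the 10 members. The 200 bases that lie 250 to 51 bases before each start are given 5′ to 3′ on the strand of the gene, and capitals mark TGGGAA, the core of the sequence that RBPJ binds.
HES1, chr3:194135898-194136097, plus strand: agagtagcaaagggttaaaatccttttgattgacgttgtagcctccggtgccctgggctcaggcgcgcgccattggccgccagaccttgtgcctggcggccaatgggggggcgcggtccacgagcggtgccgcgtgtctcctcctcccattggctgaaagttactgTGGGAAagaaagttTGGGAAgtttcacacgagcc
JAG1, chr20:10674050-10674249, minus strand: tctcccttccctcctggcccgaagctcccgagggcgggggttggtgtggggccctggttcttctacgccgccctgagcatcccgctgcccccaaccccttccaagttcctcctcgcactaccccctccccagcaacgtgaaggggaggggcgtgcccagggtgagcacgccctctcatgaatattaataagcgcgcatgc
JAG2, chr14:105168827-105169026, minus strand: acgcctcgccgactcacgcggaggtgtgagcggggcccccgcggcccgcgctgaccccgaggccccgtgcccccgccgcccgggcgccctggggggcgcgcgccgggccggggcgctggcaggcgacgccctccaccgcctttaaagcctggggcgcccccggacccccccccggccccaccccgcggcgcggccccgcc

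TGGGAA was searched on both strands, its reverse complement being TTCCCA, in the 250 bases before each start. HES1 held 2 matches on its own strand, whose first bases lay 84 and 70 before the start. RBPJ held matches at 1 of its 5 annotated starts, and NOTCH1, NOTCH2, NOTCH3, JAG1, JAG2 and MAML1 held none. Among all 35116 promoters the share with TGGGAA was 20.9%. An E-box, CACGTG, which reads the same on both strands, was in 6.35% of promoters and in none of the 8 members. A match describes the letters of the window only.

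The first comparison asked what 24 h of the ALK inhibitor did to these genes in WT CDK9 cells. HES1, which encodes a repressor of the basic helix-loop-helix family, and JAG1 rose, and JAG2 fell. Of the 9 members tested, 3 passed an adjusted p under 0.05 (2 higher and 1 lower), against 4.55% of all 16350 genes tested (1.82% higher and 2.73% lower). The second comparison asked what Tyr19Phe CDK9 did. JAG2 fell further than with the inhibitor, RBPJ and NOTCH2 fell slightly, HEY1 and JAG1 rose, and HES1 did not pass the test. There 5 of 9 members passed (2 higher and 3 lower), against 18.0% of all genes (7.61% higher and 10.4% lower). Both comparisons use the same 3 WT libraries, so their values are set side by side below, and the direct contrast of Tyr19Phe with inhibitor-treated cells tests whether they differ. In that contrast 5 of 9 members passed (1 higher and 4 lower), against 20.7% of all genes (9.57% higher and 11.1% lower). The groups did not overlap for 4, 5 and 5 of the 9 members in the 3 comparisons, against 19.6%, 32.6% and 34.4% of all genes. The median log2 fold change of the 9 members was 0.07, -0.12 and -0.21, beside -0.0010, 0.0035 and 0.0018 over all genes.

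**Figure D1:**
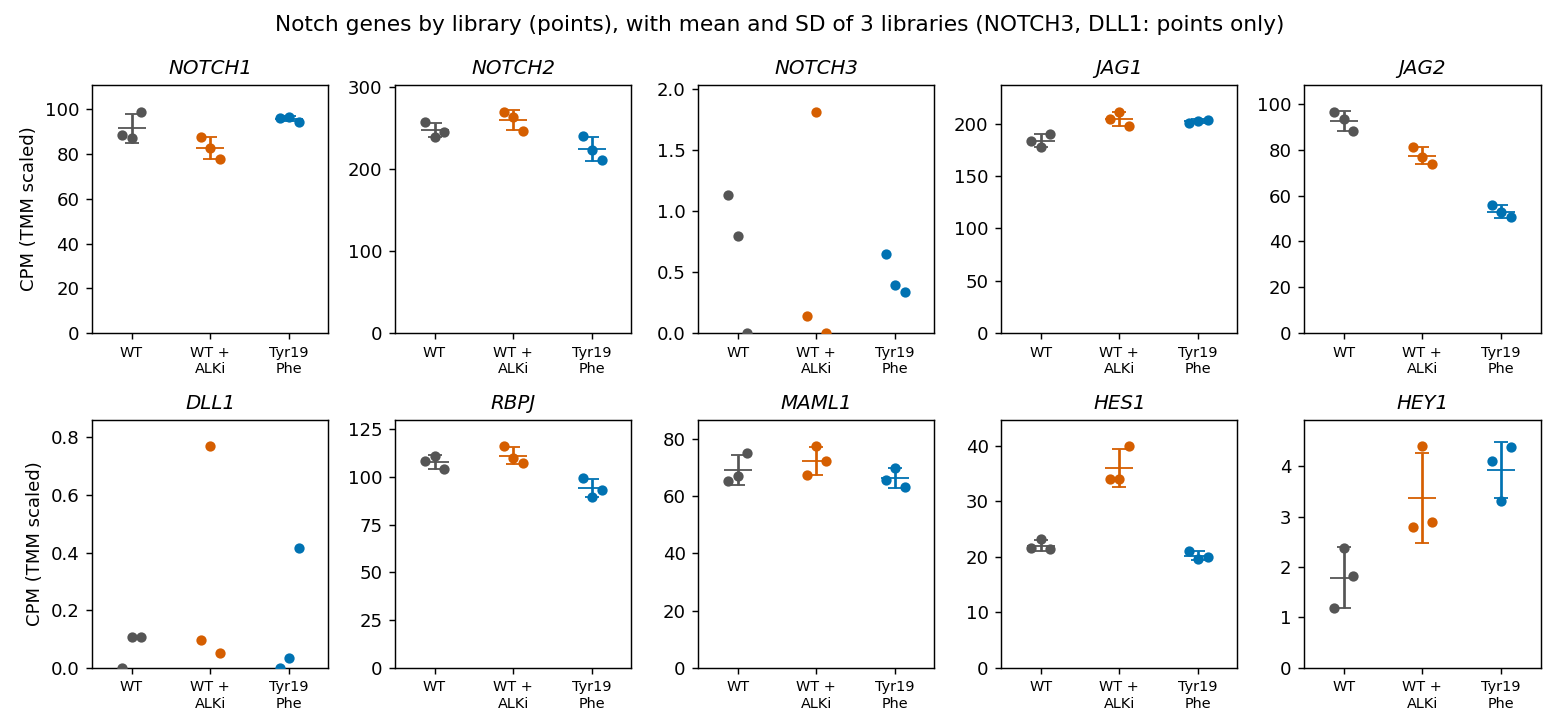
CPM of each of the 10 Notch genes on axes that start at 0, scaled by TMM factors. Points are libraries and bars are the mean and SD of 3 libraries, with points only for NOTCH3 and DLL1, which had few counts. HES1 is raised only in the inhibitor-treated group (34.0 to 39.9 CPM), and JAG2 steps down from WT through the inhibitor-treated to the Tyr19Phe group.

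JAG1 (ENSG00000101384, chromosome 20, 10637684 to 10673999, minus strand in GRCh38) encodes a membrane-bound Jagged ligand. Its level was 184, 178 and 191 CPM in the WT libraries, 205, 212 and 198 with the inhibitor and 201, 203 and 204 in Tyr19Phe cells. Every library of the latter groups was above every WT library, and the inhibitor-treated and Tyr19Phe ranges overlapped. The rise was 1.11-fold with the inhibitor (log2 0.16 ± 0.05 SE, 95% interval 0.06 to 0.25, edgeR adjusted p = 0.0446) and 1.10-fold in Tyr19Phe cells (log2 0.14 ± 0.05, adjusted p = 0.028). Tyr19Phe against inhibitor-treated cells differed by log2 -0.02, with an interval from -0.11 to 0.08 (adjusted p = 0.862). With the inhibitor the call was lost without WT 1, WT 2, Ai 1, Ai 2 or Ai 3 (adjusted p = 0.140, 0.178, 0.109, 0.203 and 0.0526). It was also lost with no filter on low counts (0.0714) and without Ai 2 and Y19F 3 together (0.206). In Tyr19Phe cells the call was lost without WT 1, WT 2, Y19F 2 or Y19F 3 (0.0814, 0.108, 0.0608 and 0.0645). JAG1 was thus called in 9 of 16 alternative fits with the inhibitor and in 11 of 16 in Tyr19Phe cells.

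JAG2 (ENSG00000184916, chromosome 14, 105140981 to 105168824, minus strand) encodes the second Jagged ligand. It was at 96.7, 93.4 and 88.1 CPM in WT, 81.2, 77.0 and 73.8 with the inhibitor and 56.0, 52.6 and 50.5 in Tyr19Phe cells, so that none of the 3 groups overlapped another. With the inhibitor it fell to 0.834 of WT (log2 -0.26 ± 0.07 SE, interval -0.40 to -0.13, adjusted p = 0.0147). In Tyr19Phe cells it fell to 0.572 of WT (log2 -0.81 ± 0.07, interval -0.94 to -0.67, adjusted p = 7.81e-11). The direct contrast was also past the threshold, with Tyr19Phe cells lower by a log2 difference of -0.54 (adjusted p = 2.02e-07). The smaller fall with the inhibitor lost its call without WT 1, WT 2, Ai 2 or Ai 3 (adjusted p = 0.130, 0.0541, 0.0603 and 0.104), while the fall in Tyr19Phe cells was called in all 16 alternative fits, at log2 -0.84 to -0.77.

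DLL1 (ENSG00000198719, chromosome 6, 170282206 to 170306565, minus strand) encodes a Delta-like ligand. It had 0, 2 and 2 counts in WT, 2, 14 and 1 with the inhibitor and 0, 1 and 11 in Tyr19Phe cells. The values over 2 counts came from 1 library in each of the latter groups, inhibitor library 2 and Tyr19Phe library 3, and most libraries were at or under the floor of 3 counts. FAM120B, on the opposite strand, overlaps DLL1 and had 689 to 1211 counts. Whether counting used the strand is not given in the sources used here.

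Since JAG1 and JAG2 moved in opposite directions, their balance was expressed per length, as TPM, the count per deposited gene length scaled to a common total in each library. The TPM of JAG1 over that of JAG2 was 1.31, 1.31 and 1.49 in the WT libraries (1.37 ± 0.104, SD, n = 3), 1.73, 1.89 and 1.85 with the inhibitor (1.82 ± 0.0815) and 2.47, 2.66 and 2.78 in Tyr19Phe cells (2.64 ± 0.155). The ranges of the 3 groups did not overlap. This ratio is made within a library and does not depend on the scaling between libraries; it restates the changes of the 2 ligands and was not tested again.

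**Figure D2:**
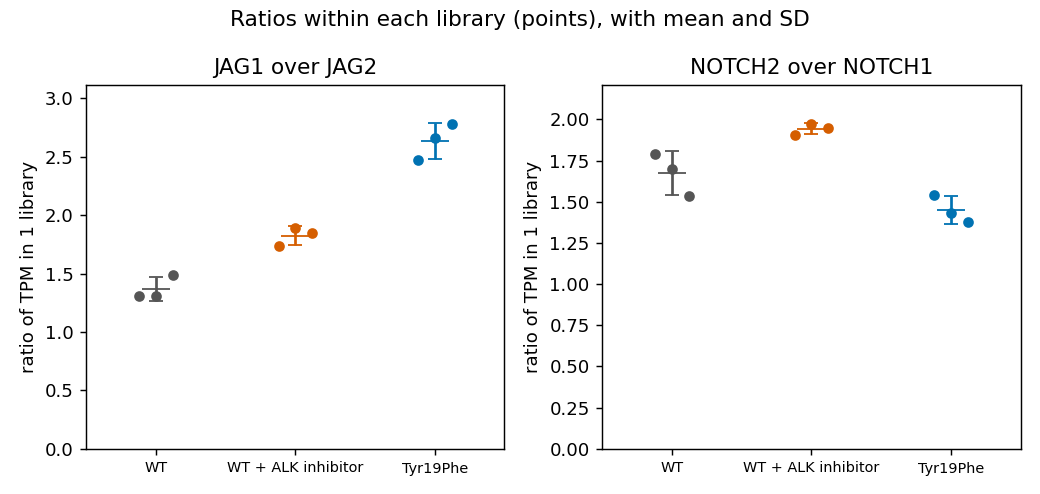
Ratio of TPM within each library for JAG1 over JAG2 and for NOTCH2 over NOTCH1, on axes that start at 0, with points for libraries and bars for the mean and SD of 3. The ligand ratio rises from 1.37 in WT to 1.82 and 2.64, while the receptor ratio is highest with the inhibitor (1.94) and lowest in Tyr19Phe cells (1.45).

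NOTCH1 (ENSG00000148400, chromosome 9, 136494433 to 136545786, minus strand) was at 88.6, 87.0 and 99.0 CPM in WT, 87.5, 82.5 and 77.9 with the inhibitor and 96.0, 96.6 and 94.4 in Tyr19Phe cells. WT overlapped both other groups, which did not overlap each other. Neither comparison with WT passed the test (log2 -0.15, adjusted p = 0.247 with the inhibitor, and log2 0.06, adjusted p = 0.559 in Tyr19Phe cells). Tyr19Phe cells were higher than inhibitor-treated cells by log2 0.21 ± 0.06 SE (adjusted p = 0.0145), a call that was lost without Ai 3 (adjusted p = 0.101).

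NOTCH2 (ENSG00000134250, chromosome 1, 119911553 to 120069626, minus strand) had the highest CPM of the receptors, at 257, 240 and 246 in WT, 270, 264 and 246 with the inhibitor and 240, 224 and 211 in Tyr19Phe cells. Its ranges met or overlapped between WT and each other group. Relative to WT the log2 fold change was 0.07 (adjusted p = 0.567) with the inhibitor and -0.14 ± 0.05 SE (adjusted p = 0.0442) in Tyr19Phe cells, and Tyr19Phe cells were lower than inhibitor-treated cells by a log2 difference of -0.21 (adjusted p = 0.00176). The fall against WT was called in only 7 of 16 alternative fits and was lost without WT 1, WT 3, Y19F 2 or Y19F 3 (adjusted p = 0.241, 0.0938, 0.122 and 0.311), and with upper quartile scaling or library size alone (0.0911 and 0.113). Reads of NOTCH2NLA, a near-identical copy of the first part of NOTCH2, cannot be kept apart with certainty; that gene had 5 to 32 counts, against at least 4541 for NOTCH2.

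NOTCH3 (ENSG00000074181, chromosome 19, 15159038 to 15200981, minus strand) was near the floor. It had 22, 15 and 0 counts in WT, 3, 33 and 0 with the inhibitor and 19, 11 and 9 in Tyr19Phe cells. The libraries of WT and of the inhibitor-treated group spread from 0 to 22 and from 0 to 33 counts, and no comparison passed the test (adjusted p = 0.9998, 0.806 and 0.791). The ratio of NOTCH2 to NOTCH1 in TPM was 1.79, 1.70 and 1.53 in WT, 1.91, 1.97 and 1.95 with the inhibitor and 1.54, 1.43 and 1.38 in Tyr19Phe cells. All inhibitor-treated libraries exceeded all WT libraries in this ratio, whereas 1 Tyr19Phe library lay above the lowest WT library.

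RBPJ (ENSG00000168214, chromosome 4, 26163455 to 26435131, plus strand), which encodes the DNA-binding factor of the pathway, was at 108, 111 and 104 CPM in WT, 116, 110 and 108 with the inhibitor and 99.6, 89.8 and 93.5 in Tyr19Phe cells. The Tyr19Phe libraries were the lowest, below every library of both other groups. The fall was log2 -0.19 ± 0.06 SE against WT (adjusted p = 0.0158) and -0.24 ± 0.06 against inhibitor-treated cells (adjusted p = 0.00275), and the inhibitor itself gave 0.04 (adjusted p = 0.826). Against WT the call was lost without WT 1, WT 2, Y19F 2 or Y19F 3 (adjusted p = 0.0640, 0.0777, 0.106 and 0.0607).

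MAML1 (ENSG00000161021, chromosome 5, 179732850 to 179777286, plus strand), which encodes a coactivator that binds RBPJ and the Notch intracellular domain, ranged from 63.2 to 77.4 CPM over the 9 libraries, with overlap between all groups. Its log2 fold changes were 0.07 (adjusted p = 0.764) with the inhibitor, -0.06 (adjusted p = 0.655) in Tyr19Phe cells and -0.13 (adjusted p = 0.237) between them.

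HES1 (ENSG00000114315, chromosome 3, 194136145 to 194138732, plus strand) was at 21.5, 23.1 and 21.4 CPM in WT, 34.0, 34.0 and 39.9 with the inhibitor and 21.1, 19.5 and 20.0 in Tyr19Phe cells. All 3 inhibitor-treated libraries lay above all others, and the Tyr19Phe libraries lay just below WT. The inhibitor raised HES1 1.63-fold (log2 0.71 ± 0.10 SE, interval 0.50 to 0.92, edgeR adjusted p = 1.22e-05), a call kept in all 16 alternative fits at log2 0.63 to 0.75. In Tyr19Phe cells the log2 fold change was -0.12, with an interval from -0.34 to 0.09 (adjusted p = 0.471). The direct contrast placed Tyr19Phe cells at 0.561 of the inhibitor-treated level (log2 -0.83 ± 0.10, interval -1.04 to -0.63, adjusted p = 1.47e-07), so the 2 effects on HES1 differed.

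HEY1 (ENSG00000164683, chromosome 8, 79764010 to 79767863, minus strand), which encodes a related repressor, was a low-count gene with 23, 45 and 34 counts in WT, 59, 80 and 56 with the inhibitor and 121, 93 and 116 in the deeper Tyr19Phe libraries. As CPM these were 1.18, 2.37 and 1.82, then 2.80, 4.39 and 2.89, then 4.10, 3.31 and 4.38. Every library of the treated and mutant groups was above every WT library. The rise in Tyr19Phe cells was 2.19-fold (log2 1.13 ± 0.32 SE, interval 0.49 to 1.77, adjusted p = 0.00979), and it lost its call without WT 1 (log2 0.91, adjusted p = 0.0725). With the inhibitor the log2 fold change of 0.91 ± 0.32 (interval 0.25 to 1.56) did not pass (adjusted p = 0.122), nor did it in any of the 16 alternative fits (adjusted p from 0.0664 to 0.424). Tyr19Phe and inhibitor-treated cells differed by log2 0.23, with an interval from -0.39 to 0.84 (adjusted p = 0.664).

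**Figure D3:**
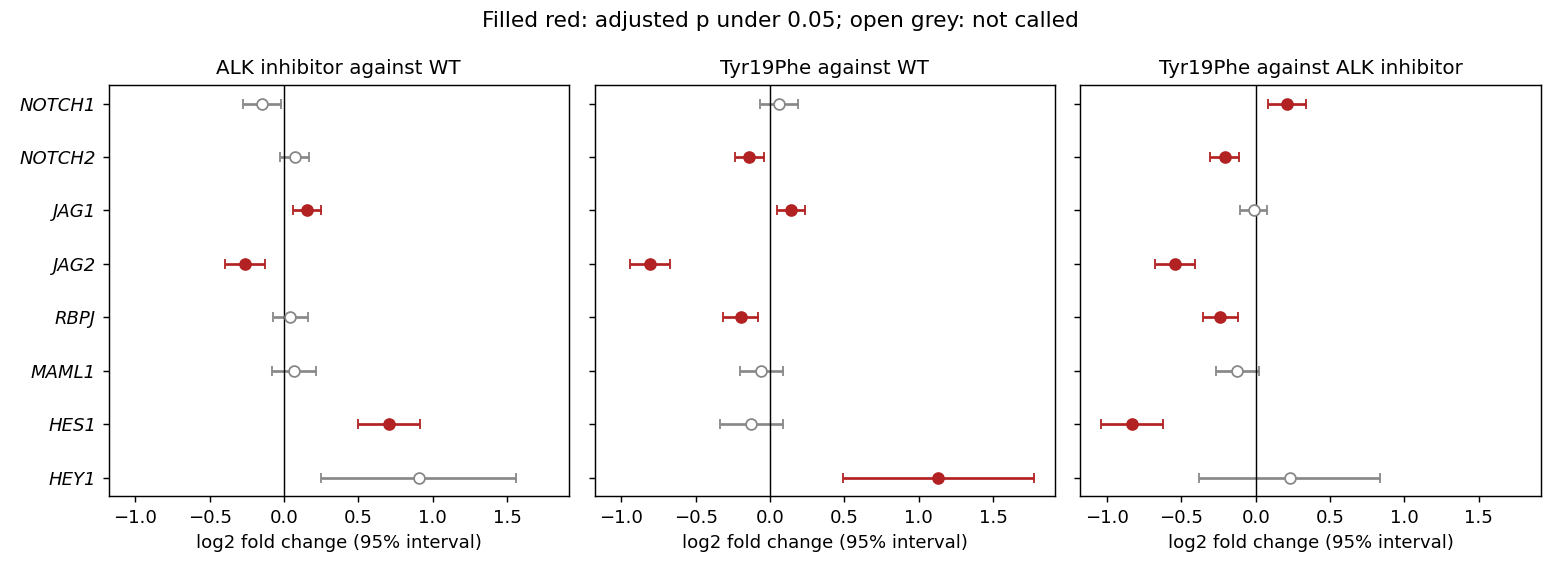
Log2 fold change of 8 Notch genes in the 3 comparisons, with 95% intervals from the edgeR fit of all 9 libraries; filled red points had an adjusted p under 0.05. HES1 stands at 0.71 with the inhibitor and at -0.83 between Tyr19Phe and inhibitor-treated cells, and JAG2 lies below 0 in all 3 panels.

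Per length, JAG1 was the most abundant member in every group, at 81.8 ± 2.42 TPM in WT (SD, n = 3). In WT it was followed by NOTCH2 (60.8 ± 1.91) and JAG2 (59.9 ± 2.89), whose ranges overlapped, and then by RBPJ (48.2 ± 1.84), MAML1 (48.0 ± 3.48) and HES1 (44.1 ± 2.19), whose neighbours in the order overlapped as well. NOTCH1 (36.4 ± 2.44 TPM) came next, and HEY1 (2.29 ± 0.777) was far below it. With the inhibitor HES1 reached 74.0 ± 6.63 TPM and stood second after JAG1, from the sixth place in WT. JAG2 was the third member in WT, the fifth with the inhibitor and the seventh in Tyr19Phe cells, at 34.1 ± 2.34 TPM.

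Levels of neighbouring genes were compared because a stable line can differ from another over a whole chromosome segment. Of all genes tested, 10.4% were called lower and 7.61% higher in Tyr19Phe cells than in WT. Around JAG2, 26 of the 64 tested genes within 5 Mb on either side were called lower there and 0 higher. The median log2 fold change of the 64 was -0.22. JAG2 lay 0.58 below that median, and 7.81% of its neighbours lay lower. Around RBPJ, 6 of 17 neighbours were called lower and 0 higher, and RBPJ lay only 0.04 below the neighbours' median of -0.15. NOTCH1 lay among 105 genes of which 37 were called higher and 6 lower, with a median of 0.23. Its higher level in Tyr19Phe than in inhibitor-treated cells became a log2 difference of -0.03 relative to the same neighbours. Around NOTCH2, 2 of 37 neighbours were called higher and 3 lower, and NOTCH2 lay 0.28 below the neighbours' median of 0.14. HEY1 (1.07 above its neighbours) and JAG1 (0.23 above) kept their direction. With the inhibitor, which was given to cells of the WT line, the medians around the members lay between -0.09 and 0.03, and HES1 exceeded its own by 0.69 and JAG1 by 0.25, whereas JAG2 lay below its own by a log2 difference of -0.25. The part of a segment's copy number in these values was not tested.

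**Figure D4:**
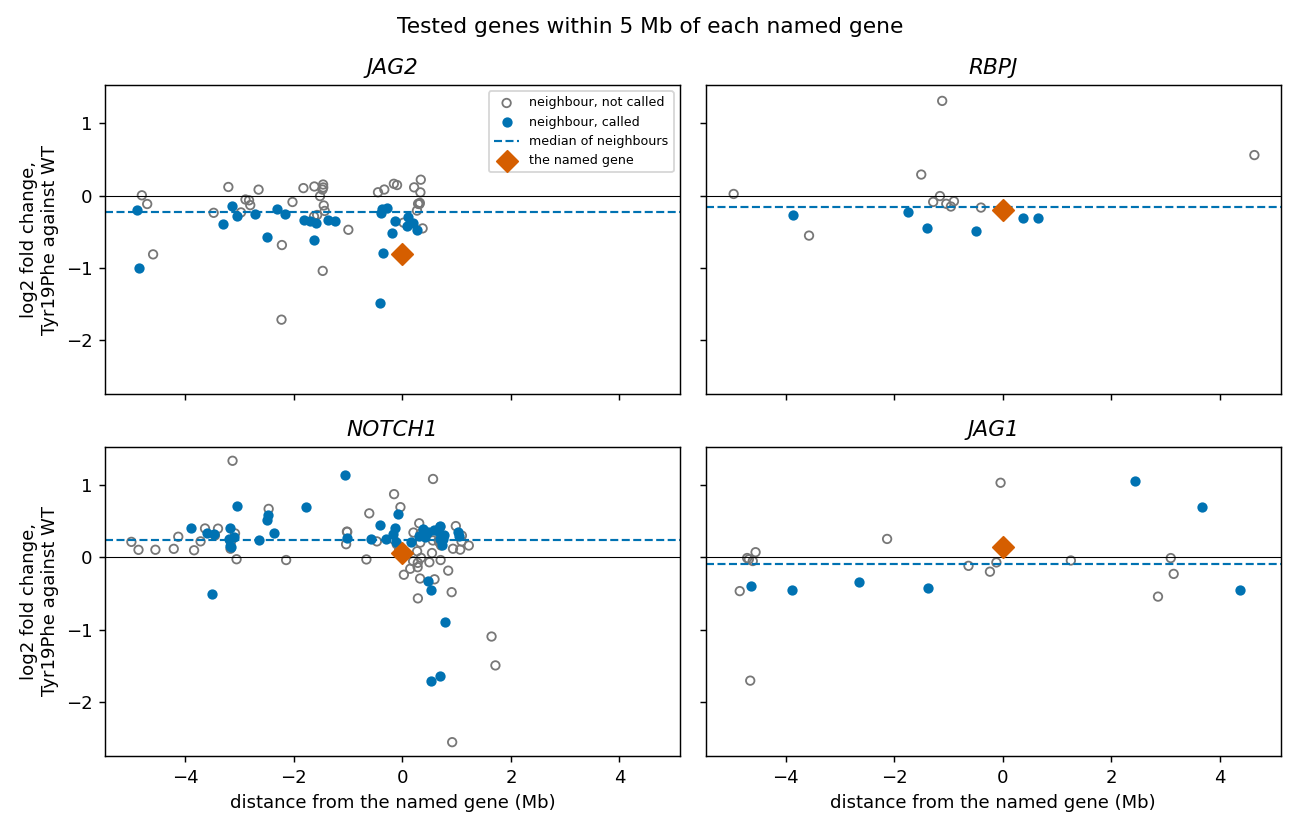
Log2 fold change of Tyr19Phe against WT for the tested genes within 5 Mb of JAG2, RBPJ, NOTCH1 and JAG1, by distance from the named gene in Mb. Filled blue points passed the test, the dashed line is the median of the neighbours and the orange diamond is the named gene. Neighbours of JAG2 and RBPJ that passed are all below 0, and JAG2 lies below its median line.

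The other genes of the pathway were described from a list of 72, of which 65 were tested. The list was written with earlier results of these data known. With protein-coding genes only, 5.96%, 22.7% and 25.8% of genes were called in the 3 comparisons. With the inhibitor 6 rose and 2 fell (12.3%, against 4.55% of all genes tested; median log2 fold change -0.03). In Tyr19Phe cells 8 rose and 13 fell (32.3%, against 18.0% of all genes; median -0.07). Between Tyr19Phe and inhibitor-treated cells 4 were higher and 11 lower (23.1%), which was near the 20.7% of all genes. Genes named below are the up to 3 with the smallest adjusted p in each list and comparison with WT; SNAI2 in Tyr19Phe cells, BHLHE41, NRARP, FBXW7, NEURL1B and TLE1 were added after their values were seen.

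Among 13 tested HES and HEY family and target genes, 4 rose with the inhibitor and 0 fell, against 1.82% and 2.73% of all genes. No HES or HEY gene of this list was called, and its median log2 fold change was -0.06. SNAI2, which encodes the repressor SLUG of epithelial-mesenchymal transition, was at 114, 103 and 123 CPM in WT and 173, 177 and 189 with the inhibitor, without overlap. It rose by log2 0.66 (edgeR adjusted p = 6.91e-10). BHLHE40 (log2 0.29, adjusted p = 5.11e-05) and BHLHE41 (0.65, adjusted p = 0.00925), which encode clock-linked repressors, and ID1 (0.18, adjusted p = 0.00242), an inhibitor of basic helix-loop-helix factors, were the others. In Tyr19Phe cells 5 of the 13 rose and 1 fell, against 7.61% and 10.4% of all genes. Again no HES or HEY gene of the list was called, and the median was 0.23. CCND1, the gene of cyclin D1, was at 453, 457 and 453 CPM in WT and 555, 558 and 584 in Tyr19Phe cells (log2 0.32, adjusted p = 1.32e-07), and ID1 (0.26, adjusted p = 2.37e-06), BHLHE40 (0.19, adjusted p = 0.00197), SNAI2 (0.23, adjusted p = 0.00416) and BHLHE41 (0.57, adjusted p = 0.00789) rose as well. NRARP, which encodes a feedback inhibitor of Notch signalling, was at 5.85, 7.44 and 7.59 CPM in WT and 4.37, 2.70 and 4.11 in Tyr19Phe cells, and fell by 0.90 on the log2 scale (adjusted p = 0.00521). SNAI2 was lower in Tyr19Phe than in inhibitor-treated cells (log2 -0.43, adjusted p = 7.05e-07), and CCND1 was higher (log2 0.42, adjusted p = 3.55e-10). BHLHE41 lost its call with the inhibitor without WT 1 or Ai 2 (adjusted p = 0.0756 and 0.131) and in Tyr19Phe cells without WT 1 (0.0550).

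Neither of the 2 tested genes among other receptors and ligands passed in any comparison, also by DESeq2 or at an unadjusted p under 0.05 (0 genes). Of the 6 genes of receptor glycosylation and maturation, 1 rose and 1 fell with the inhibitor, against 1.82% and 2.73% of all genes. FURIN, which encodes the convertase that cleaves the receptor during maturation, rose by log2 0.23 (adjusted p = 0.00193), and LFNG, a glycosyltransferase of the Fringe family that modifies the receptor, fell (log2 -0.44, adjusted p = 0.0257). LFNG was at 27.0, 25.9 and 20.1 CPM in WT and 17.1, 18.3 and 18.5 with the inhibitor. Of the 8 tested proteases of receptors and ligands, 0 passed with the inhibitor by edgeR and 0 by DESeq2, and 1 had an unadjusted p under 0.05. In Tyr19Phe cells 1 of the 6 rose and 1 fell, against 7.61% and 10.4% of all genes. Of the 8 proteases 0 rose and 2 fell there. In these cells ADAM10, the sheddase that makes the first activating cut, fell by 0.40 on the log2 scale (adjusted p = 6.23e-08). Its level went from 368, 348 and 350 CPM in WT to 293, 262 and 255. NCSTN, a subunit of gamma-secretase, fell too (log2 -0.20, adjusted p = 0.0140), as did the Fringe gene RFNG (-0.27, adjusted p = 0.0223), and FURIN rose (0.18, adjusted p = 0.00685). LFNG lost its call without WT 1, WT 2, Ai 1, Ai 2 or Ai 3 (adjusted p = 0.204, 0.121, 0.120, 0.0664 and 0.0646). In Tyr19Phe cells NCSTN lost it without WT 1 or Y19F 3 (0.0689 and 0.0954), RFNG without WT 2, WT 3, Y19F 2 or Y19F 3 (0.0734, 0.0786, 0.0869 and 0.0952) and FURIN without WT 1 or Y19F 2 (0.0508 and 0.0930).

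Among 14 tested genes of endocytosis and ubiquitin ligases, NEURL1, which encodes an E3 ligase of Notch ligands, was at 45.3, 54.1 and 42.1 CPM in WT, 31.3, 33.2 and 29.1 with the inhibitor and 34.6, 26.7 and 33.6 in Tyr19Phe cells. It fell in both comparisons (log2 -0.60, adjusted p = 2.10e-04, and -0.58, adjusted p = 7.31e-05). NUMB, an endocytic adaptor that antagonises the receptor, rose with the inhibitor (0.16, adjusted p = 0.0425), and was the only other gene of this list to pass there. So 1 of the 14 rose and 1 fell, against 1.82% and 2.73% of all genes. In Tyr19Phe cells the ligand ligase gene MIB1 fell (log2 -0.22, adjusted p = 0.00223), as did FBXW7 (-0.42, adjusted p = 0.00882), the substrate receptor through which the intracellular domain is degraded. NEDD4 (0.24, adjusted p = 0.00556) and NEURL1B (0.80, adjusted p = 0.0359), which encode further E3 ligases, rose. With NEURL1, 2 of the 14 rose and 3 fell in Tyr19Phe cells, against 7.61% and 10.4% of all genes. NUMB lost its call without WT 1, WT 2, Ai 1, Ai 2 or Ai 3 (adjusted p = 0.202, 0.151, 0.105, 0.177 and 0.0703), FBXW7 without WT 3 or Y19F 3 (0.109 and 0.0539) and NEURL1B without WT 1, WT 2, Y19F 1 or Y19F 2 (0.201, 0.158, 0.0501 and 0.151). NEURL1B also lost it with DESeq2 (adjusted p = 0.0539), and its groups overlapped; NUMB also lost it with no filter on low counts (0.0610).

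Of the 8 tested coactivators and 14 tested corepressors, 0 passed with the inhibitor by edgeR and 0 by DESeq2, and 2 and 1 of them had an unadjusted p under 0.05. In Tyr19Phe cells 2 of the 8 coactivators fell and 0 rose, against 10.4% and 7.61% of all genes. They were the acetyltransferase gene CREBBP (log2 -0.23, adjusted p = 7.99e-04) and CCNC, the cyclin of the Mediator kinase module (-0.20, adjusted p = 0.0163). Of the corepressors 4 of 14 fell and 0 rose, against 10.4% and 7.61% of all genes. TLE2, a Groucho-family corepressor that HES proteins recruit, was at 24.2, 27.9 and 26.8 CPM in WT and 16.2, 13.4 and 15.9 in Tyr19Phe cells (log2 -0.79, adjusted p = 2.63e-06), and CTBP2 (-0.29, adjusted p = 5.32e-04), the deacetylase gene HDAC2 (-0.15, adjusted p = 0.0191) and TLE1 (-0.15, adjusted p = 0.0324) fell less. CCNC lost its call without WT 3, Y19F 2 or Y19F 3 (adjusted p = 0.138, 0.0756 and 0.0624), HDAC2 without WT 1, WT 3, Y19F 2 or Y19F 3 (0.0868, 0.0877, 0.118 and 0.0762) and TLE1 without WT 1, WT 2, WT 3, Y19F 2 or Y19F 3 (0.0683, 0.162, 0.0563, 0.109 and 0.206). With upper quartile scaling, library size alone and no filter TLE1 was not called either (adjusted p = 0.0682, 0.0830 and 0.0516), so that it passed in 7 of 16 alternative fits, and HDAC2 was not called with library size alone (0.0600).

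**Figure D5:**
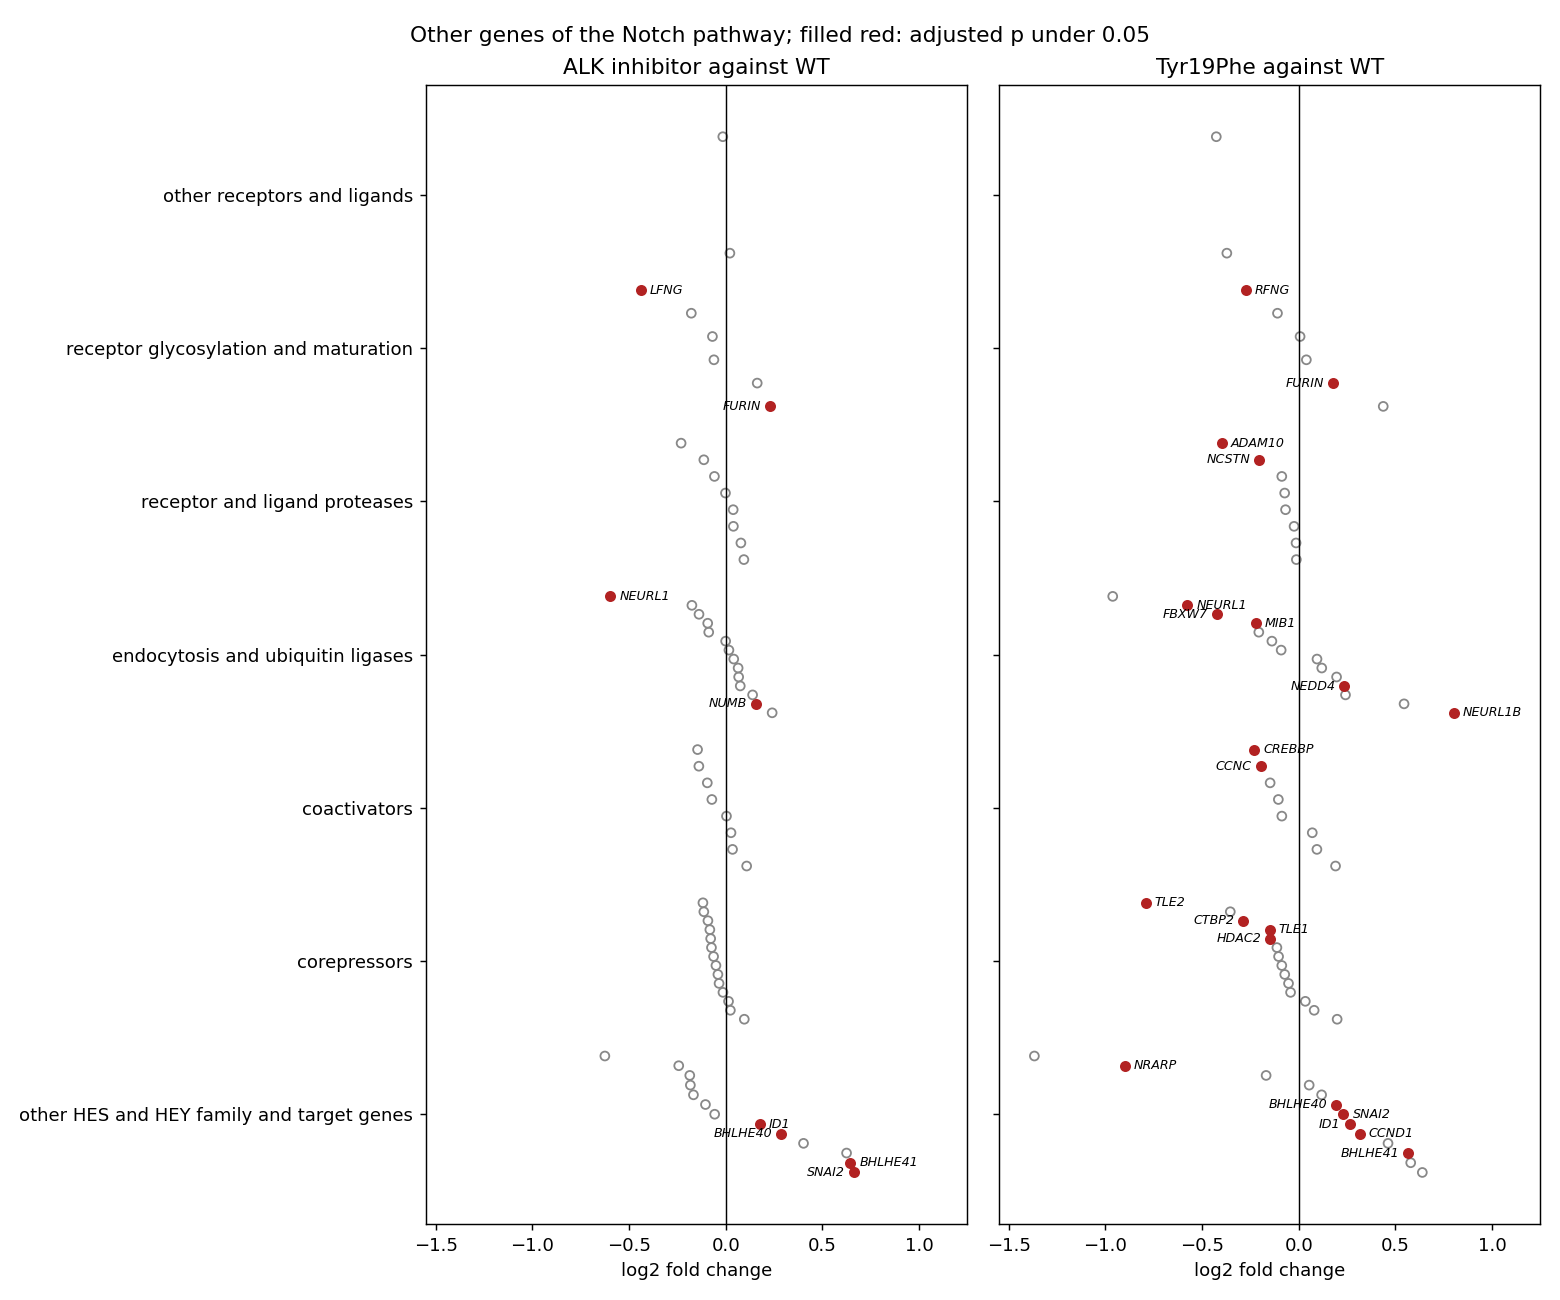
Log2 fold change against WT of the 65 tested genes of the wider Notch list, by function, with the ALK inhibitor on the left and Tyr19Phe on the right. Filled red points had an adjusted p under 0.05 and are named: 8 genes with the inhibitor and 21 in Tyr19Phe cells. Called corepressors, coactivators and proteases lie below 0 in Tyr19Phe cells, and those lists have no called gene with the inhibitor.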

How the data were processed

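Bulk RNA-seq of SKOV3 cells was read from 1 table of the authors' deposited counts, whole-number reads per gene in 9 libraries, not normalized. The submitters' processing notes name CASAVA, HISAT2 2.0.5 and featureCounts 1.5.0-p3 and the build GRCh38, with no role or order; the annotation and the strand setting are not given in the sources used here. Groups and replicate numbers came from the labels. Members and lists were chosen with earlier results of these data known.

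Counts were scaled by TMM (factors 0.986 to 1.01), filtered with filterByExpr (minimum count 10, minimum total 15), and 16350 genes were tested in 1 quasi-likelihood fit of all 9 libraries with 6 residual degrees of freedom (edgeR 4.0.16, R 4.3.3), with Benjamini-Hochberg adjustment over all of them. Tests and intervals used the total degrees of freedom of the fit, which add to the 6 a part borrowed across genes. A gene was called at an adjusted p under 0.05. All adjusted p-values are from this fit, and SE and 95% intervals are of its log2 fold change. CPM used TMM-scaled totals; TPM used the deposited gene lengths. A floor of 3 counts is 0.102 to 0.165 CPM and covers counting error only. Fewer cells of a type and less RNA per cell cannot be told apart in bulk RNA. The exact permutation test of 3 against 3 cannot go below p = 0.1 and was not used.

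Named genes were all 10 members, genes overlapping them, CDK9 and ALK, and of each pathway list up to 3 called genes with the smallest adjusted p per comparison with WT. Same-numbered libraries did not deviate together (r from -0.012 to 0.026 in 9 pairs), so numbers were not taken as pairs. Libraries of a group differed beyond sampling noise (chi-square per degree of freedom 4.23 to 8.71). The fit was tested on simulated data. Alternatives were DESeq2 1.42.0, other scalings, filters, thresholds and gene sets, the replicate block and each library left out.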

Additional observations from a re-analysis of the deposited data

How the results depend on the processing

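The counts of members called (3, 5 and 5 for the inhibitor against WT, Tyr19Phe against WT and Tyr19Phe against the inhibitor) were the same with DESeq2. DESeq2 called 6.91%, 19.4% and 21.3% of the 12235, 14969 and 15517 genes to which it gave an adjusted p. In Tyr19Phe against WT 4 were called with upper quartile scaling, library size alone, protein-coding genes only or only the 2 groups compared. The shares of all genes were 18.1%, 18.3%, 22.7% and 18.2%. With the inhibitor 2 were called with no filter on low counts, against 2.65% of all genes. With the replicate block they were 3, 5 and 5 as well, and all genes called were 818, 3076 and 3465, against 744, 2940 and 3387. Leaving out 1 library gave 1 to 3, 1 to 5 and 4 to 5 members. The shares of all genes were then 2.89% to 3.57%, 12.8% to 15.4% and 15.4% to 17.5%. Leaving out inhibitor library 2 and Tyr19Phe library 3 together, an alternative chosen after seeing the data, gave 1, 2 and 3. The shares of all genes there were 3.16%, 14.8% and 13.5%. An unadjusted p under 0.05 gave 5 with the inhibitor, against 15.1% of all genes. An adjusted p under 0.01 gave 1 with the inhibitor and 2 in Tyr19Phe cells, against 2.61% and 11.3% of all genes. In the direct contrast it gave 4, against 12.8%. A log2 fold change of at least 1 besides gave 0, 1 and 0, against 0.239%, 1.79% and 2.07% of all genes.

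Directions that turned belonged to values that had not passed the test, apart from NOTCH1 in Tyr19Phe against the inhibitor. NOTCH3 with the inhibitor turned to 0.0024 (DESeq2 size factors), 0.0075 (upper quartile), 0.022 (library size alone) and 0.025 (DESeq2), and leaving out 1 library gave -3.04 to 0.69. NOTCH3 turned to 0.14 in Tyr19Phe against WT and 0.44 against the inhibitor under the replicate block, and leaving out 1 library gave -1.05 to 0.21 and -1.06 to 2.56. Without both libraries NOTCH3 was 2.73 and JAG1 0.0078 in Tyr19Phe against the inhibitor, and leaving out 1 library gave JAG1 -0.038 to 0.0097 there and MAML1 -0.10 to 0.0074 in Tyr19Phe against WT. Relative to its neighbours NOTCH1 was -0.034 in Tyr19Phe against the inhibitor and -0.17 in Tyr19Phe against WT. On the same scale JAG1 turned to 0.019 in Tyr19Phe against the inhibitor, and NOTCH3 to 0.0093 with the inhibitor. The cause was not tested. The depth limits NOTCH3, DLL1 and HEY1, which had at most 45 counts in any WT library. The same alternatives for the wider pathway list were added after seeing the data; leaving out 1 library gave 5 to 8, 15 to 22 and 10 to 13 of its genes called.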

Other observations

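Other HES and HEY family genes with low counts did not pass in either comparison with WT and were picked after their values were seen. HEYL, which encodes another HEY-family repressor, was at 2.36, 1.21 and 1.92 CPM in WT, 1.33, 1.92 and 1.60 with the inhibitor and 0.44, 0.78 and 0.91 in Tyr19Phe cells. All 3 Tyr19Phe libraries were below all WT libraries, with a log2 fold change of -1.37 ± 0.50 SE (edgeR adjusted p = 0.0532), while HEY1 rose in the same cells. HEYL had only 13 to 46 counts in a library. HEY2 had a positive log2 fold change without passing, 0.40 with the inhibitor (adjusted p = 0.575) and 0.46 in Tyr19Phe cells (adjusted p = 0.287). HES6 was higher in Tyr19Phe than in inhibitor-treated cells (log2 0.68, adjusted p = 0.0366). Its ranges were 4.43 to 5.67 CPM in WT, 2.74 to 3.84 with the inhibitor and 4.49 to 5.98 in Tyr19Phe cells. The inhibitor-treated libraries thus lay below all WT libraries, while Tyr19Phe and WT overlapped. Against WT, HES6 passed neither for the inhibitor (log2 -0.62, adjusted p = 0.163) nor for Tyr19Phe (log2 0.05, adjusted p = 0.915). HES2 was at 2.57 to 3.28 CPM in WT, 3.79 to 4.96 with the inhibitor and 3.47 to 6.16 in Tyr19Phe cells without passing (adjusted p = 0.265 and 0.109).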
